A study of Mus musculus with 6 samples.

Results

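The genes described here are 9 transcripts of T cells and cytotoxic lymphocytes, Cd3e, Cd3d, Cd3g, Trac, Trbc2, Cd4, Cd8a, Nkg7 and Gzmb, measured in mouse hippocampus after knockdown of hepaCAM, an adhesion molecule of astrocytes. They were taken by gene symbol from the 29872 genes in the deposited files, and each of the 9 was found once. RNA sequencing gave 6 libraries, all from the hippocampus of C57BL/6J mice. The 3 shHepaCAM libraries came from mice that received a gene delivery vector, adeno-associated virus (AAV), whose short hairpin RNA (shRNA) targets Hepacam, into the CA1 field of both hippocampi. The 3 shControl libraries carry the genotype label wild type, and the labels do not say whether these mice received a vector. The labels give no age or sex of the mice, no promoter of the vector and no time from injection to RNA extraction. The virus went into 1 field, whereas the label of the sequenced tissue is hippocampus, so the values average over cells that the vector reached and cells that it did not. Whether each library is a separate mouse is not said, so the p-values reflect how far these libraries spread, and that spread may be technical.

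T cells recognise antigen through a receptor made of a variable and a constant part in each chain. The receptor has no signalling tail of its own and relies on the CD3 chains, which carry the signal into the cell. The coreceptors CD4 and CD8 bind class II and class I histocompatibility molecules and mark helper and cytotoxic T cells, and cytotoxic T cells and natural killer cells store granzymes in granules that they release onto a target. In the healthy brain such cells are rare and sit mostly in the meninges, the choroid plexus and the perivascular spaces.

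The deposited values are RPKM, reads scaled to the length of the gene and the depth of the library, and the reads behind them were recovered from their whole-number steps. Between 14903198 and 17341842 reads stood behind a library. Hepacam itself was at 33.4 to 37.3 RPKM in control and at 20.9 to 24.4 RPKM in knockdown libraries, so its groups did not overlap in the direction the labels give. The libraries of shControl replicate 1 and shHepaCAM replicate 3 stood apart: their summed markers of choroid plexus epithelium, a tissue inside the ventricles next to the hippocampus, were at 112 and 56.9 RPM (recovered reads scaled to library depth alone), against 2187 to 5521 in the other 4 libraries. They are called the choroid-poor libraries below.

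All 9 genes were higher in every knockdown library than in any control library. Such a separation upward was found for 13.7% of the 29872 genes, and for 17.8% of the 21792 genes with at least 10 reads over the 6 libraries, a minimum that all 9 genes meet. The genes were scarce. A control library held 1 to 17 reads of each and a knockdown library 9 to 61, and 7 of the 9 averaged under 1 RPKM over the 6 libraries. Pooled over the 3 libraries of a group, RPM values were 2.68 to 11.2 times as high in the knockdown group, with a median of 4.05 times, and the 95% interval from counting error alone lay above 1 for each gene. An exact two-sided permutation test of each gene gave p = 0.1, the smallest value that 3 libraries against 3 allow. In bulk tissue, more cells of a type and more RNA per cell cannot be told apart.

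**Figure D1:**
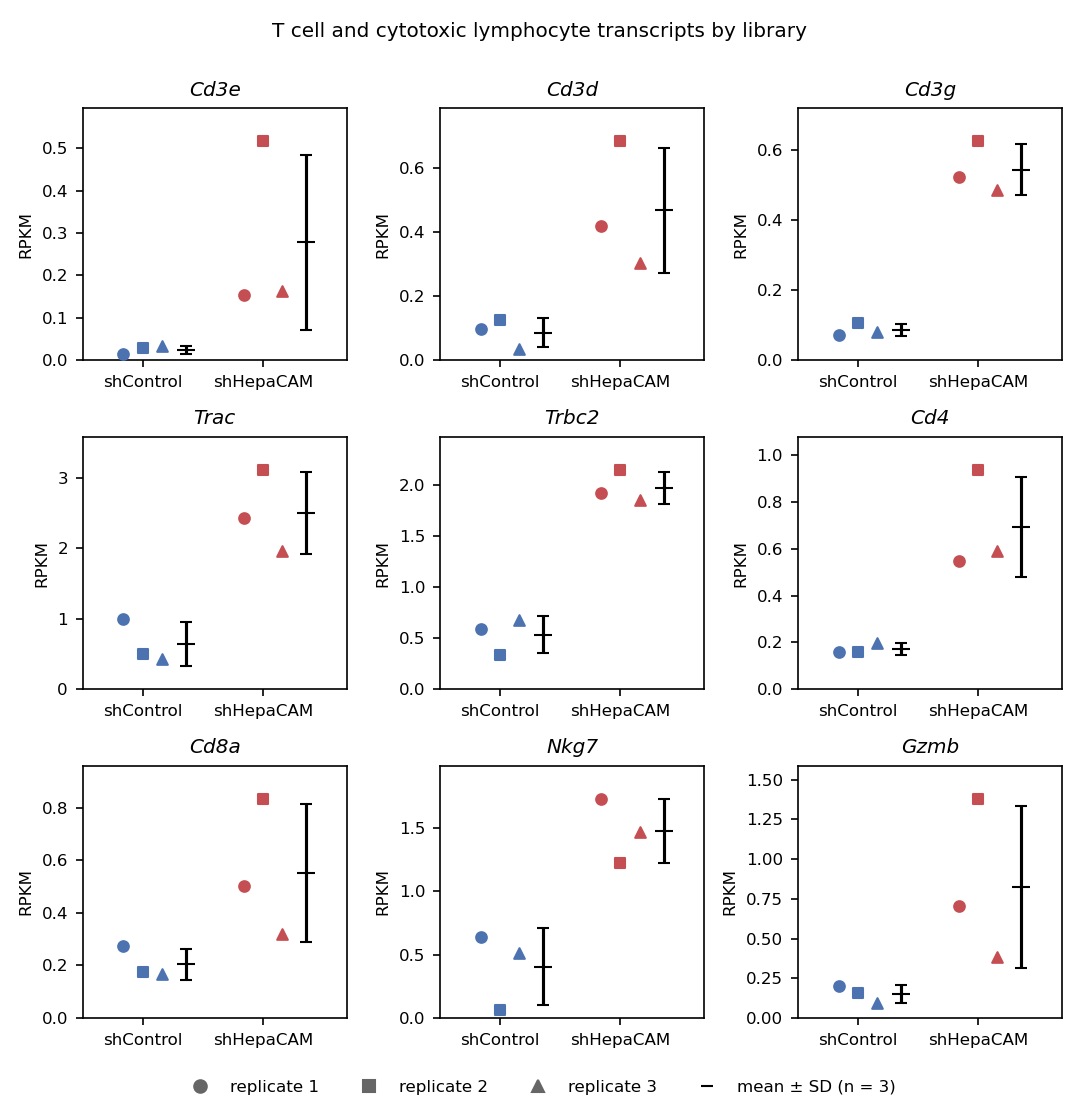
RPKM of the 9 genes in each library, 1 panel per gene with its own vertical axis; the symbol gives the replicate number, and the bar is the mean with its SD over 3 libraries. In each panel the 3 shHepaCAM libraries lie above the 3 shControl libraries, and shHepaCAM replicate 2 is the highest library for 8 of the 9 genes.

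The CD3 chains were near absence in the control libraries, with 5, 8 and 14 reads in all for Cd3e, Cd3d and Cd3g. Cd3e (ENSMUSG00000032093), which encodes the epsilon chain that pairs with both other chains, was at 0.0143, 0.0283 and 0.0329 RPKM in the control libraries, in the order of replicates 1, 2 and 3 that is kept below, and at 0.155, 0.516 and 0.165 RPKM in the knockdown libraries. These values stand for 1, 2 and 2 reads in the control and 10, 34 and 11 reads in the knockdown libraries. The groups did not overlap, and shHepaCAM replicate 2 alone held most of the knockdown reads of this gene. The pooled ratio was 11.2 (95% interval 4.53 to 36.0), and 6.44 without shHepaCAM replicate 2. Cd3e shares 135 of its 4080 annotated exon bases with the antisense transcript Gm48719, and with no strand setting given the reads of the pair cannot be told apart there.

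Cd3d (ENSMUSG00000032094), the delta chain, was at 0.0966, 0.127 and 0.0370 RPKM in the control libraries and at 0.418, 0.683 and 0.303 RPKM in the knockdown libraries. The lowest knockdown library was above the highest control library, with 9 reads against 4. The pooled ratio was 5.23 (95% interval 2.42 to 12.9). Cd3g (ENSMUSG00000002033), the gamma chain, was at 0.0715, 0.106 and 0.0821 RPKM in control and at 0.522, 0.626 and 0.485 RPKM in knockdown libraries. It was the most even of the CD3 chains within each group, at 0.0865 ± 0.0176 RPKM against 0.544 ± 0.0727 RPKM (SD, n = 3 each). It had 4, 6 and 4 reads against 27, 33 and 26 reads, a pooled ratio of 6.27 (95% interval 3.54 to 12.0).

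The constant regions of the receptor chains were the most abundant of the 9 genes per length. Trac (ENSMUSG00000076928), the constant region of the alpha chain, was at 1.0, 0.493 and 0.431 RPKM in control and at 2.43, 3.12 and 1.96 RPKM in knockdown libraries. Its reads were 16, 8 and 6 against 36, 47 and 30, and its pooled ratio was 3.85 (95% interval 2.55 to 5.96). The highest control library, shControl replicate 1, is one of the choroid-poor pair. Trbc2 (ENSMUSG00000076498), a constant region of the beta chain, was at 0.591, 0.333 and 0.679 RPKM in control and at 1.92, 2.15 and 1.85 RPKM in knockdown libraries. Its knockdown libraries were close to each other, with 21, 24 and 21 reads, against 7, 4 and 7 reads in control. The near-identical copy Trbc1 can take reads from Trbc2, so the split between the copies is uncertain. Their sum was 7, 7 and 14 reads in control and 34, 42 and 30 reads in knockdown libraries, a pooled ratio of 3.87 (95% interval 2.53 to 6.09), close to that of Trbc2 alone at 3.74 (95% interval 2.20 to 6.70).

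Both coreceptor genes were higher in the knockdown libraries. Cd4 (ENSMUSG00000023274), the coreceptor of helper T cells that some mouse dendritic cells also carry, was at 0.159, 0.157 and 0.200 RPKM in control and at 0.549, 0.938 and 0.590 RPKM in knockdown libraries. The control libraries were nearly equal, with 11, 11 and 12 reads, and the knockdown libraries held 35, 61 and 39 reads, a pooled ratio of 4.05 (95% interval 2.77 to 6.09). Cd8a (ENSMUSG00000053977), the coreceptor of cytotoxic T cells and also found on a class of dendritic cells, was at 0.273, 0.174 and 0.166 RPKM in control and at 0.504, 0.835 and 0.319 RPKM in knockdown libraries. Its groups came nearest to each other, with 17 reads in shControl replicate 1 and 19 reads in shHepaCAM replicate 3, and its pooled ratio of 2.68 (95% interval 1.82 to 4.02) was the lowest of the 9. Cd8b1, which encodes the partner chain of CD8 on T cells, had 3, 8 and 6 reads in control and 5, 29 and 13 reads in knockdown libraries, and its groups overlapped. The level of Cd4 relative to Cd8a, as a ratio of RPKM, was 0.584, 0.902 and 1.20 in control and 1.09, 1.12 and 1.85 in knockdown libraries, and these ranges overlapped.

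The cytotoxic granule genes differed in which library was highest. Nkg7 (ENSMUSG00000004612), a granule membrane protein of natural killer and cytotoxic T cells, was at 0.639, 0.0631 and 0.514 RPKM in control and at 1.73, 1.22 and 1.47 RPKM in knockdown libraries. It was the gene of the 9 whose highest library was shHepaCAM replicate 1, with 25 reads, and its control libraries ranged from 1 to 10 reads. The pooled ratio was 3.69 (95% interval 2.16 to 6.61). Gzmb (ENSMUSG00000015437), the protease granzyme B, was at 0.204, 0.161 and 0.0935 RPKM in control and at 0.704, 1.38 and 0.383 RPKM in knockdown libraries. Its 16, 32 and 9 knockdown reads made it one of the most uneven of the 9 genes within the group. The pooled ratio was 5.29 (95% interval 2.75 to 11.2), and 3.48 without shHepaCAM replicate 2.

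**Figure D2:**
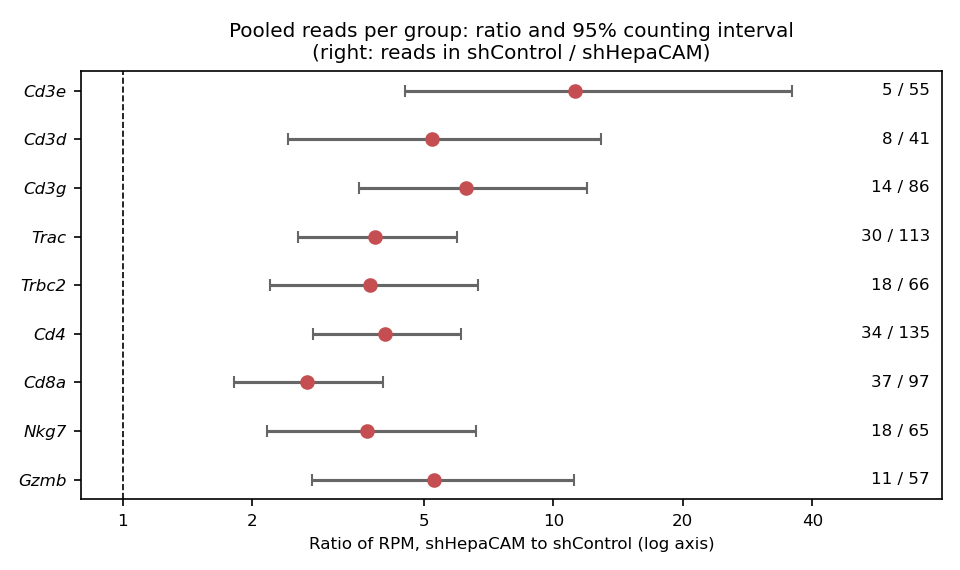
Ratio of pooled RPM, shHepaCAM to shControl, for each of the 9 genes on a log axis, with 95% intervals that cover counting error only; the numbers at the right are the pooled reads of each group. Each interval lies above 1, from 2.68 for Cd8a to 11.2 for Cd3e, and the intervals of these 2 genes do not overlap.

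The fit across all genes was limma on log2(RPKM + 1), a scale that understates the change of low genes. Of the 13864 genes that averaged 1 RPKM or more, 4.23% rose and 1.84% fell at an adjusted p under 0.05. Scaling to the median gene split the calls evenly, with 336 higher and 347 lower. Trac and Trbc2 passed the minimum, and did so through their knockdown libraries, so their number supports nothing. Trac rose by 1.10 (SE 0.18, adjusted p = 0.0228, limma) and Trbc2 rose by 0.96 (SE 0.14, adjusted p = 0.0149, limma) on that scale, where the median of all tested genes was 0.05. Neither call held without shControl replicate 2 (limma adjusted p of 0.0888 for Trac and 0.0585 for Trbc2) or without shControl replicate 3 (limma adjusted p of 0.0947 for Trac and 0.0526 for Trbc2). Without shHepaCAM replicate 2 the limma adjusted p of Trac was 0.0604. Without both choroid-poor libraries, Trac kept its call and the limma adjusted p of Trbc2 was 0.0813.

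With no minimum, all 9 genes entered a fit of 29872 genes, in which 0.405% of genes rose. Cd3g rose in that fit, by 0.51 (SE 0.06, adjusted p = 0.0394, limma), and the other 8 genes had positive changes of 0.31 to 1.10 that did not pass. Cd3g lost the call without any 1 library, with limma adjusted p-values of 0.0627 to 0.213. A second fit, limma-voom on the recovered reads of the 21792 genes with at least 10 reads, called 3.90% of genes higher. In it Cd3g, Cd4, Trac and Trbc2 rose, by 2.54 (SE 0.47), 1.94 (SE 0.39), 1.96 (SE 0.43) and 1.87 (SE 0.46) on the log2 RPM scale, with limma-voom adjusted p-values of 0.0130, 0.0182, 0.0254 and 0.0407. Cd3e, Cd3d, Cd8a, Nkg7 and Gzmb had changes of 2.97, 2.23, 1.31, 2.22 and 2.13 with limma-voom adjusted p-values of 0.0771 to 0.141, and the median change over all tested genes was 0.07. None of these 4 calls held without shControl replicate 2 or without shControl replicate 3, and without shControl replicate 1 the call of Trac was the one that held. Trbc2 also lost its call without any 1 shHepaCAM library (limma-voom adjusted p of 0.0594 to 0.0807). Trac lost its call without shHepaCAM replicate 2 (limma-voom adjusted p = 0.0557).

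Per length, the order of the knockdown means ran from Trac at 2.50 ± 0.581 RPKM (SD, n = 3) through Trbc2 at 1.97 ± 0.156, Nkg7 at 1.47 ± 0.254, Gzmb at 0.823 ± 0.510, Cd4 at 0.692 ± 0.213, Cd8a at 0.553 ± 0.261, Cd3g at 0.544 ± 0.0727 and Cd3d at 0.468 ± 0.195 to Cd3e at 0.279 ± 0.206. Neighbours in this order differed by more than the larger of their SDs at the step from Trbc2 to Nkg7 and at the step from Nkg7 to Gzmb, and at no other step. The 5 receptor genes together held 31, 24 and 20 reads in control and 106, 158 and 97 reads in knockdown libraries, or 1.81, 1.38 and 1.34 against 6.70, 9.79 and 5.92 RPM. Within that sum the CD3 chains gave 8, 12 and 7 reads in control libraries and the constant regions 23, 12 and 13 reads. In knockdown libraries the CD3 chains gave 49, 87 and 46 reads and the constant regions 57, 71 and 51 reads.

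The variable segments of the receptor genes are a readout that the choice of the 9 genes did not use. A rearranged receptor transcript starts with 1 such segment, and T cells that carry different receptors use different ones. The files hold 33 of these segments. No gene in the files is at 0 in every library, so a segment without any read would not be among them. Their summed reads were 16, 5 and 6 in control and 20, 18 and 19 in knockdown libraries, or 0.935, 0.288 and 0.403 against 1.26, 1.12 and 1.16 RPM. The groups did not overlap, but shControl replicate 1 lay closer to the knockdown libraries than to the other control libraries. The difference of means was 0.638 RPM. With 1 library left out at a time it ranged from 0.511 without shControl replicate 2 to 0.834 without shControl replicate 1. The pooled ratio was 2.16 (95% interval 1.34 to 3.54, counting error only). At least 1 read fell on 9, 2 and 3 segments in control and on 11, 11 and 13 segments in knockdown libraries. No segment had more than 4 reads in a library. Over a whole group, 14 segments were detected in control and 28 in knockdown libraries, and 9 in both. Each of the 33 has a read in some library, so the number in both follows from the group numbers and carries no result. The groups held 27 and 57 segment reads, and more reads alone can meet more segments. How far the higher number comes from the higher reads was not tested. Variable segments share sequence, so single segments are not listed.

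Most other genes of the T cell receptor and its signalling were higher in every knockdown library. The list held 22 genes, of which Trgc1, Trgc2 and Trgc4 were not in the files. Of the 19 genes found in the files, 13 had groups that did not overlap, each of them higher, against 13.7% of all genes. Among genes with at least 10 reads, a minimum that all 19 meet, the share was 17.8%. Of these 19 genes, 4 reached a mean of 1 RPKM, Ptprcap and Lck through their knockdown libraries, and 0 passed in limma. The smallest p-values among them were those of Ptprcap, a partner of the phosphatase CD45, at 0.699 ± 0.309 against 2.17 ± 0.703 RPKM (SD, n = 3 each; log2 change 0.89, limma adjusted p = 0.0558) and of the receptor kinase Lck at 0.831 ± 0.184 against 1.67 ± 0.414 RPKM (SD, n = 3 each; log2 change 0.54, limma adjusted p = 0.0955). In limma-voom all 19 were tested, with a median change of 1.54 against 0.07 for all genes tested, and Cd6, Lat and Ptprc rose, where 3.90% of all genes did. Some genes reached the minimum of 10 reads through their knockdown libraries, such as Themis with 0, 3 and 0 reads in control and 6, 12 and 8 reads in knockdown libraries, so the limma-voom medians of the lists are descriptions only. Cd6, a costimulatory receptor of T cells, had 8, 16 and 6 reads in control and 50, 72 and 35 reads in knockdown libraries (log2 change 2.39, limma-voom adjusted p = 0.0188). The adaptor Lat, with 16, 18 and 11 against 47, 45 and 43 reads, rose by 1.60 (limma-voom adjusted p = 0.0163). Ptprc, which encodes CD45 of all white blood cells and of microglia, rose by 1.16 (limma-voom adjusted p = 0.0174). None of these 3 calls held without shControl replicate 2 or without shControl replicate 3, with limma-voom adjusted p-values of 0.0689 to 0.106, and those of Cd6 and Lat were also lost without shControl replicate 1 (limma-voom adjusted p of 0.0706 and 0.0551). Lat lost its call without both choroid-poor libraries too (limma-voom adjusted p = 0.0519). The kinase gene Zap70, which acts just below the receptor, was lower in shHepaCAM replicates 2 and 3 alone, at 138, 140 and 123 reads in control and 159, 68 and 79 reads in knockdown libraries. Themis, Zap70, Cd6, Lat and Ptprc were chosen for naming after their values were seen.

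**Figure D3:**
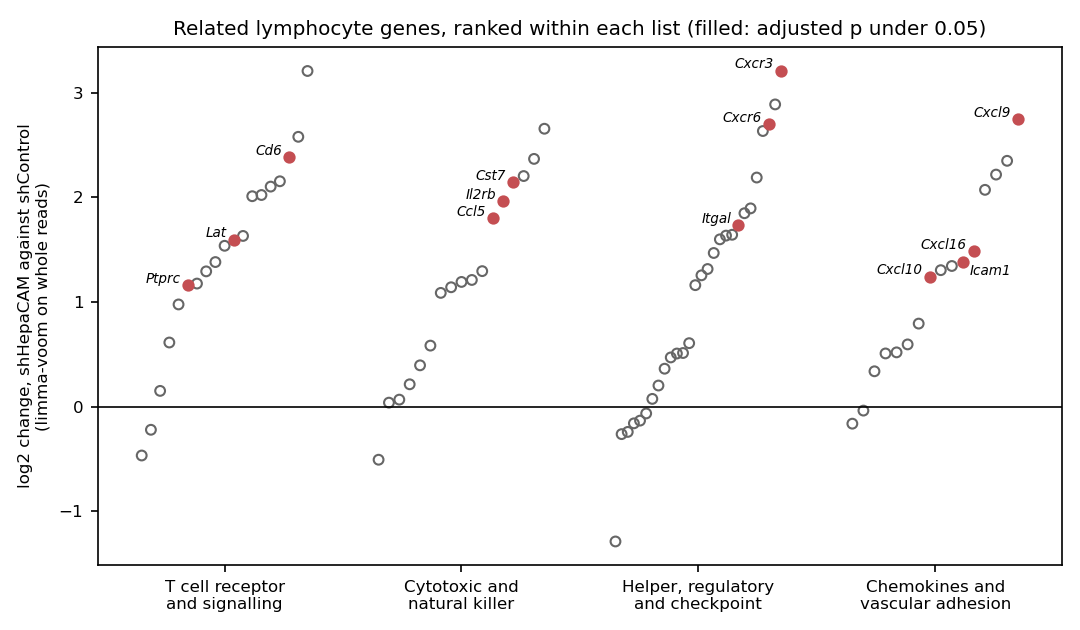
Log2 change between the groups in limma-voom for the genes of 4 related lists, ranked within each list; filled points with names have an adjusted p under 0.05 over all 21792 genes. Most points lie above 0, with list medians of 1.54, 1.19, 1.16 and 1.27 from left to right, and the filled points are a minority in each list.

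The list of cytotoxic and natural killer genes was mixed. It held 21 genes, of which Ifng was not in the files. Of the 20 genes in the files, 8 had groups that did not overlap, all higher, against 13.7% of all genes. Among genes with at least 10 reads, a minimum that 17 of the 20 meet, the share was 17.8%. In limma, where 4.23% of all tested genes rose, Cst7, Ccl5 and Ctsw rose among the 4 that were tested. Ctsw reached the minimum of 1 RPKM through its knockdown libraries, so the number of calls supports nothing. Cst7, the protease inhibitor cystatin F, which activated microglia also make, averaged 7.45 ± 2.46 RPKM in control and 32.3 ± 9.23 RPKM in knockdown libraries (SD, n = 3 each) and rose by 1.99 on the log2 scale (SE 0.26, limma adjusted p = 0.0115). The chemokine gene Ccl5 averaged 2.54 ± 0.756 RPKM in control and 8.96 ± 2.57 RPKM in knockdown libraries (SD, n = 3 each) and rose by 1.48 on the log2 scale (SE 0.21, limma adjusted p = 0.0141). Ctsw, the cysteine protease cathepsin W of cytotoxic cells, averaged 0.832 ± 0.139 RPKM in control and 1.81 ± 0.338 RPKM in knockdown libraries (SD, n = 3 each) and rose by 0.61 on the log2 scale (SE 0.14, limma adjusted p = 0.0480). The call of Cst7 was lost without shControl replicate 3 (limma adjusted p = 0.0526) and that of Ccl5 without shControl replicate 2 (limma adjusted p = 0.0639) or replicate 3 (limma adjusted p = 0.0690). Ctsw lost its call in 14 of 17 alternatives. In limma-voom, 17 genes were tested with a median change of 1.19, and Cst7, Ccl5 and Il2rb rose, where 3.90% of all genes did. Il2rb, the shared receptor chain for interleukins 2 and 15, had 13, 15 and 5 reads in control and 41, 32 and 51 reads in knockdown libraries (log2 change 1.97, limma-voom adjusted p = 0.0239). Il2rb lost this call in 6 of 9 alternatives, with limma-voom adjusted p-values up to 0.113 and among them leaving out any 1 control library or shHepaCAM replicate 3. Ccl5 lost its limma-voom call without shControl replicate 2 or 3 (limma-voom adjusted p of 0.0518 and 0.0583).

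Several granule and natural killer genes were not higher in every knockdown library. Gzma, the other main granzyme, had 1, 1 and 4 reads in control and 2, 2 and 0 reads in knockdown libraries. Gzmm had 36, 35 and 20 against 29, 37 and 36 reads, and its groups overlapped. Prf1, the pore protein perforin, had 0, 0 and 1 reads in control and 1, 5 and 10 reads in knockdown libraries. The natural killer receptor gene Ncr1 had 0 reads in the control group and 3 reads in the knockdown group, all in shHepaCAM replicate 3, which is at the floor of 3 reads. Klrb1c, which encodes the NK1.1 antigen, had 0, 1 and 1 against 0, 0 and 0 reads, and Klrc1 had 3, 0 and 0 against 0, 1 and 3 reads. At this depth no difference was detectable in Ncr1, Klrb1c or Klrc1. Other low genes of the list were higher in every knockdown library. Klrk1 had 6, 3 and 2 against 7, 6 and 13 reads, and Fasl 2, 3 and 0 against 13, 4 and 7. Tbx21 had 3, 6 and 3 against 9, 7 and 11 reads, and Cd244a 3, 1 and 0 against 10, 6 and 5. None of these passed in limma-voom (adjusted p of 0.158 to 0.335). Apart from Ncr1, these genes were named after their values were seen.

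The list of helper, regulatory and checkpoint genes of T cells held 29 genes, all in the files. Groups did not overlap for 15 in the upward and 2 in the downward direction, the latter Itga4 and S1pr1, against 13.7% and 6.44% of all genes. Among genes with at least 10 reads, a minimum that all 29 meet, the upward share was 17.8%. In limma, 8 were tested, Tnfrsf4 through its knockdown libraries, and 0 passed. Tnfrsf4, the costimulatory receptor OX40, was at 0.973 ± 0.445 against 2.23 ± 0.243 RPKM (SD, n = 3 each; log2 change 0.73, limma adjusted p = 0.0627), and S1pr1, which astrocytes and endothelium also express, at 43.8 ± 1.29 against 39.2 ± 1.93 RPKM (SD, n = 3 each; log2 change -0.16, limma adjusted p = 0.165). Cd40lg, the helper signal to B cells, had 0 reads in the control group and 1, 7 and 2 reads in the knockdown libraries, at least 3.40-fold higher when the control group as a whole is set to a floor of 3 reads. Foxp3, the factor of regulatory T cells, had 6, 6 and 2 reads in control and 11, 16 and 15 reads in knockdown libraries, and did not pass in limma-voom (adjusted p = 0.128).

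In limma-voom, where all 29 were tested with a median change of 1.16, Itgal, Cxcr3 and Cxcr6 were among the genes that rose, where 3.90% of all genes did. Cxcr3, the chemokine receptor of activated T cells, had 1, 9 and 2 reads in control and 30, 44 and 20 reads in knockdown libraries (log2 change 3.21, limma-voom adjusted p = 0.0323). Cxcr6, the receptor for Cxcl16, had 6, 1 and 4 against 18, 27 and 21 reads (log2 change 2.70, limma-voom adjusted p = 0.0334). Itgal, the integrin chain that binds Icam1, had 31, 46 and 30 against 111, 147 and 96 reads (log2 change 1.74, limma-voom adjusted p = 0.00550). Itgal kept its call in all 9 alternatives to that fit, whereas Cxcr3 lost it in 4, with limma-voom adjusted p-values up to 0.152, and Cxcr6 in 7, up to 0.144. Both lost it without any 1 control library or without shHepaCAM replicate 2, and Cxcr6 also without shHepaCAM replicate 3 or without both choroid-poor libraries. Foxp3, Itgal, Cxcr3 and Cxcr6 were named after their values were seen.

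Ligands of these receptors are among the 18 genes of lymphocyte-attracting chemokines and vascular adhesion. Of the 18, 10 had groups that did not overlap, all higher, against 13.7% of all genes. Among genes with at least 10 reads, a minimum that 16 of the 18 meet, the share was 17.8%. In limma, where 4.23% of all tested genes rose, Cxcl16, Icam1, Cxcl10 and Ccl4 rose among the 9 that were tested. Ccl4 reached the minimum of 1 RPKM through its knockdown libraries, so the number of calls supports nothing. Cxcl16 averaged 1.14 ± 0.133 RPKM in control and 3.21 ± 0.425 RPKM in knockdown libraries (SD, n = 3 each) and rose by 0.97 on the log2 scale (SE 0.11, limma adjusted p = 0.00924). Icam1, the ligand of the Itgal integrin on endothelium and glia, averaged 1.09 ± 0.215 RPKM in control and 2.82 ± 0.210 RPKM in knockdown libraries (SD, n = 3 each) and rose by 0.87 on the log2 scale (SE 0.12, limma adjusted p = 0.0138). Cxcl10, a ligand of Cxcr3, averaged 4.45 ± 1.04 RPKM in control and 10.4 ± 1.56 RPKM in knockdown libraries (SD, n = 3 each) and rose by 1.07 on the log2 scale (SE 0.16, limma adjusted p = 0.0166). Ccl4 averaged 0.481 ± 0.340 RPKM in control and 2.25 ± 0.885 RPKM in knockdown libraries (SD, n = 3 each) and rose by 1.12 on the log2 scale (SE 0.24, limma adjusted p = 0.0419); it lost its call in 13 of 17 alternatives. Without both choroid-poor libraries, 0 of the 4 passed in limma, with adjusted p-values of 0.0573 for Cxcl16, 0.0777 for Icam1 and 0.0850 for Cxcl10. Icam1 also lost its call without shControl replicate 2 (limma adjusted p = 0.0515) or 3 (limma adjusted p = 0.0555), and Cxcl10 without shControl replicate 1 (limma adjusted p = 0.0531) or 2 (limma adjusted p = 0.0513). Cxcl9, the second Cxcr3 ligand, fell under the minimum for limma and had 9, 4 and 9 reads in control and 38, 59 and 48 reads in knockdown libraries. It rose by 2.75 in limma-voom (adjusted p = 0.00821) and kept the call in all 9 alternatives there; it was named after its values were seen. The endothelial selectin genes Sele and Selp had 0 to 4 reads in each library.

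Summed markers of several other immune cells were higher in the same libraries, and those of neurons lower. Of all genes, 13.7% were higher and 6.44% lower without overlap, against which the counts of separate genes below stand. Among genes with at least 10 reads, 17.8% were higher without overlap. Summed B cell markers were at 3.16, 2.71 and 1.95 RPM in control and at 6.89, 9.61 and 11.5 in knockdown libraries, with groups that did not overlap for 3 of the 7 genes. Ms4a1, the B cell antigen CD20, had 0, 0 and 4 reads in control and 10, 3 and 7 reads in knockdown libraries. Summed plasma cell markers were at 70.1 to 89.2 against 125 to 304 RPM, mostly from Xbp1 in control libraries, with 3 of 6 genes separate. Monocyte and dendritic cell markers were at 41.2, 35.8 and 37.6 against 65.2, 74.4 and 105 RPM, with 4 of 8 genes separate. These were Ccr2, Ly6c2, Itgax and Plac8, whereas Flt3, Xcr1, Siglech and Zbtb46 overlapped. Xcr1, which marks the dendritic cells that carry CD8, had 2, 1 and 0 reads in control and 1, 5 and 4 reads in knockdown libraries. Microglia markers were at 287 to 346 against 409 to 453 RPM, with 6 of 6 genes higher. Neuron markers were at 8247, 8186 and 8095 RPM in control and at 6694, 5838 and 6599 RPM in knockdown libraries. Camk2a alone gave most reads of this sum in every library. Of the 4 genes, 3 were lower without overlap, of which Snap25 and Camk2a fell in limma (adjusted p of 0.0441 and 0.0348) and Syt1 did not pass (limma adjusted p = 0.287). The remaining gene, Rbfox3, overlapped, at 68.5, 66.2 and 62.1 against 61.0, 69.1 and 68.9 RPKM (limma adjusted p = 0.922). The sums of border macrophage, neutrophil and mast cell markers overlapped between the groups, and 0 of the 5, 0 of the 4 and 0 of the 3 genes found were separate. Meninges and fibroblast markers were at 38.7, 58.2 and 38.9 against 74.5, 78.6 and 34.7 RPM, which also overlapped, with 0 of 4 genes separate. Red blood cell transcripts, a measure of the blood left in the tissue, were lower in the knockdown libraries, at 5.37, 5.95 and 4.52 against 6.43, 12.3 and 16.8 RPM. The part of these other cells in the values of the 9 genes was not tested. The library order differed between lineages. The receptor sum was highest in shHepaCAM replicate 2 and lowest, among knockdown libraries, in replicate 3. Sums of meninges and fibroblast, border macrophage, neutrophil, red blood cell and endothelium markers had the same knockdown order. B cell, plasma cell and monocyte sums were highest in shHepaCAM replicate 3, where 6 of the 9 T cell and cytotoxic genes had their lowest knockdown level. Of the separate monocyte and dendritic cell genes, Ly6c2 and Itgax were highest there, with 129, 195 and 632 and with 323, 394 and 504 knockdown reads. Ccr2 and Plac8 were highest in shHepaCAM replicate 1, with 32, 11 and 10 and with 54, 29 and 44 reads.

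**Figure D4:**
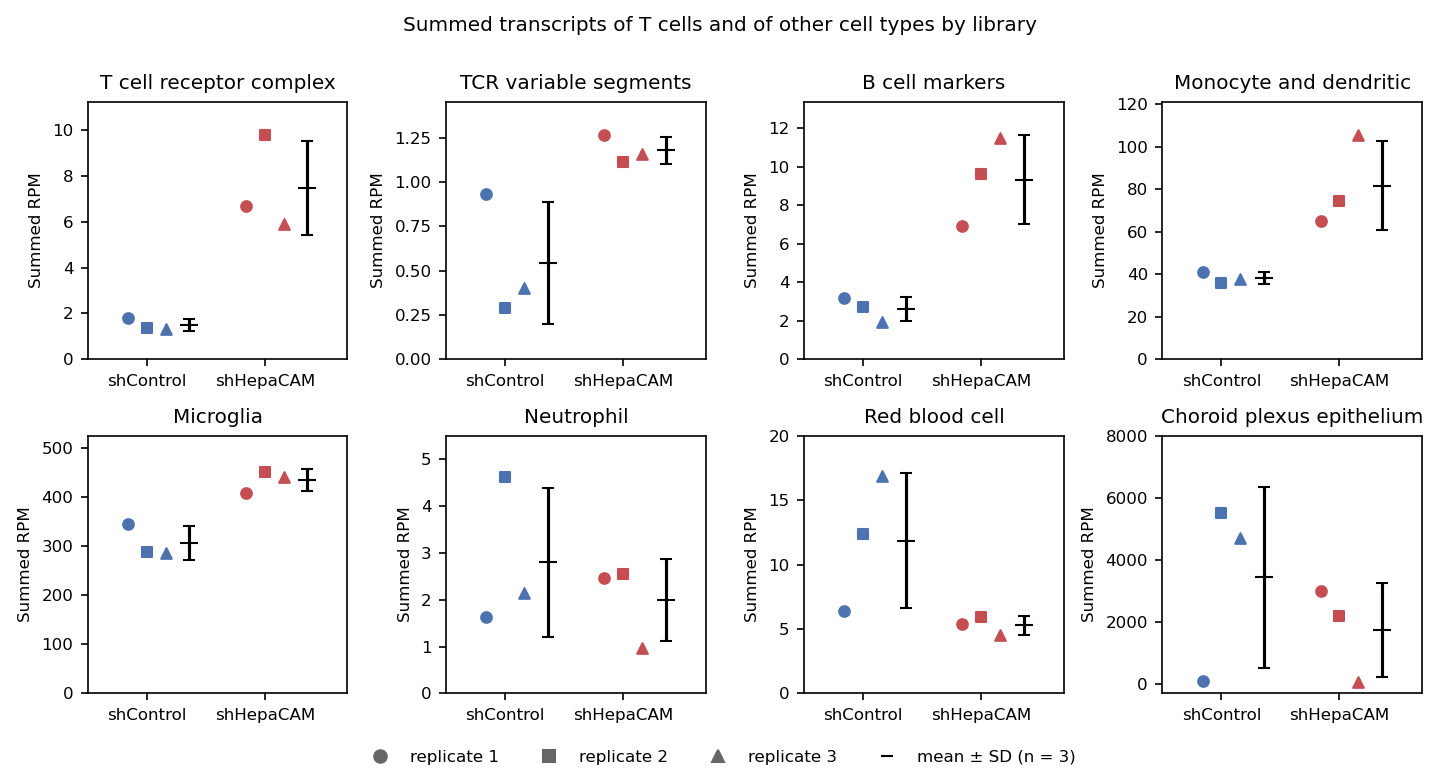
Summed levels (RPM, vertical axis) of the 5 receptor genes, of the 33 receptor variable segments and of marker lists of other cells in each library, with the mean and SD over 3 libraries; vertical axes differ between panels. The receptor, variable segment, B cell, monocyte and microglia sums of every knockdown library lie above those of each control library, whereas neutrophil and choroid plexus sums overlap and red blood cell sums are lower.

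The 5 genes whose levels followed the summed receptor genes most closely over the 6 libraries were Chac1, Rbm7, Fgd2, Sept1 and C3, with Pearson correlations of 0.997 to 0.998 on log scales among 12194 genes ranked. The 6 points share the split between the groups, and 1031 genes had a correlation over 0.9, so this is a description with no test. Complement C3 was at 1.28, 0.706 and 0.744 RPKM in control and at 6.29, 11.8 and 6.85 RPKM in knockdown libraries. Rbm7 reached a similar correlation with a far smaller range, from 7.38 to 7.72 RPKM in control and from 8.81 to 9.62 RPKM in knockdown libraries. Lag3, an inhibitory receptor of activated T cells that other cells also express, was at 9.01, 8.37 and 7.35 RPKM in control and at 24.9, 27.1 and 28.2 RPKM in knockdown libraries. Its control level lay above that of each of the 9 genes in any library, and its highest library was shHepaCAM replicate 3 and not replicate 2.

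Promoters are shown for 3 of the genes because the genes were higher in the same libraries, and the windows show where letters bound by lymphocyte factors occur. RefSeq windows on build GRCm38.p6 were found for 6 of the 9 genes and not for Cd4, Trac and Trbc2. Each sequence gives the 250 bases before the start, 5′ to 3′ on the strand of the gene. Cd3d and Cd3g are neighbours that are read away from each other. Cd3d lies on the plus strand at chr9:44981536-44981785, Cd3g on the minus strand at chr9:44980432-44980681 and Nkg7 on the plus strand at chr7:43436888-43437137. Capitals mark the letters searched on both strands: GGAAG for the core of ETS factors, TGTGGT for RUNX factors, AGATAA for GATA factors and CACCTG for an E-box.
Cd3d: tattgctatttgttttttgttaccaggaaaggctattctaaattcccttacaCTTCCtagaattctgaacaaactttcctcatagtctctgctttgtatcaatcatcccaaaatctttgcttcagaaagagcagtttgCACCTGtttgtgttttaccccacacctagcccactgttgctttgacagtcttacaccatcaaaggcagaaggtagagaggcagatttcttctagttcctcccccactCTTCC
Cd3g: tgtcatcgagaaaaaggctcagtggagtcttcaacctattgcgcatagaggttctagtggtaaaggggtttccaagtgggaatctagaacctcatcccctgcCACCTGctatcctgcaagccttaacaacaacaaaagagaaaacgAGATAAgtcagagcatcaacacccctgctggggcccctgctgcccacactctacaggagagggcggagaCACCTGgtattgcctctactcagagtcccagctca
Nkg7: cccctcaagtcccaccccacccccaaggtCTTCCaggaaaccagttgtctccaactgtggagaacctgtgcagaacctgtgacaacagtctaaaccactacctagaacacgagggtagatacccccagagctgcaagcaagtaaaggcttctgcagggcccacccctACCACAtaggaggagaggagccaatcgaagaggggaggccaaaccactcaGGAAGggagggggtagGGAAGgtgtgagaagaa

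The Cd3d window held 2 ETS cores and 1 E-box, the Cd3g window 1 GATA match and 2 E-boxes, and the Nkg7 window 3 ETS cores and 1 RUNX match, with no matches that overlapped. Of the 6 windows, 4 held an ETS core, 2 a RUNX match, 1 a GATA match and 2 an E-box. These counts include Cd3e among the ETS windows and Gzmb among the RUNX windows. For Cd3e and Gzmb, bases just past the start were not found in an annotated transcript of the gene, so the position of these windows is uncertain. Of all 32851 promoter windows of the same length, 64.1% held an ETS core, 14.0% a RUNX match, 9.99% a GATA match and 17.2% an E-box. The matches describe these letters and say nothing of binding.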

How the data were processed

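The titles of the libraries gave each its group and replicate number. The deposited values were RPKM computed by the authors, with the unit read from the values themselves. Per the submitters' processing notes, the reads were processed with Bowtie2 2.0.6 and TopHat2 2.0.12 on mm39. Strand setting, read counter and gene annotation were not given in the sources used here. GENCODE M21, on another build, gave symbols for 29805 of 29872 identifiers and exon lengths. Its exon coordinates also gave the bases that Cd3e shares with Gm48719, so that overlap was not checked on mm39. With these lengths, 27390 genes (91.9%), among them all 9 described, came out as whole reads within 0.01 read in every library, and a step of their own resolved 2402 more, 99.7% in all.

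The main test was limma 3.58.1 in R 4.3.3 with a mean-variance trend on log2(RPKM + 1), for genes that averaged 1 RPKM or more, with Benjamini-Hochberg adjustment over all genes tested and a threshold of 0.05. The design named a count test if the files held counts. They hold RPKM, so no count test was the main result, and limma-voom on the recovered reads, scaled to library totals, was an alternative. Ratios of pooled reads carry exact conditional binomial intervals at the 95% level, and floors are 3 reads; both cover counting error only. Both fits and the recovery of reads were tested on simulated data. Named genes are the 9 genes, Hepacam, and from each list the genes past the threshold in limma (at most 4) or the 2 with the smallest p. Also named are list genes with 0 control reads and at least 3 knockdown reads, and the 5 genes most like the receptor sum among genes that averaged 1 RPKM or more. Any other gene named falls outside this rule and should be read as chosen after its values were seen, also where the text does not say so. A gene of 1 list is not reported here, though it counts in the totals of its list. The 9 genes, the lists and the tests were chosen with earlier results of these data known. No library repeats another: chi-square per degree of freedom was at least 3.89 for every pair. Plots used Python 3.11.15 with matplotlib 3.10.9.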

Additional observations from a re-analysis of the deposited data

How the results depend on the processing

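Of the 9 genes, the 2 that limma called, Trac and Trbc2, remained called with quantile normalization, scaling to the median gene, a pseudocount of 0.1, no trend, array weights and a threshold of 0.1. The count was 1 with no filter, 4 with limma-voom, 1 without both choroid-poor libraries, 0 at a threshold of 0.01, and 0 to 2 with each library left out. With no filter, the 1 gene called became 0 without any 1 library or without both choroid-poor libraries. In limma-voom the 4 became 0 to 3 with each library left out. The cause of these losses was not tested. Genes called higher per list ranged from 0 to 5 over the settings. No result changed direction.

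Same-numbered libraries showed no sign of pairing: their deviations correlated at -0.21, 0.015 and -0.14, and 0 of the 3 control libraries correlated best with its own number. The highest correlation, 0.27, joined the choroid-poor libraries, and 3 libraries per group are too few to exclude a pairing. With the replicate number as a block, limma called 157 genes against 842, and 0 of the 9 genes with the filter (adjusted p of 0.0627 for Trac and 0.0684 for Trbc2) or with no filter; limma-voom called 4, with Cd3e in place of Trbc2.

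Depth limits most of these genes: control libraries held 1 to 17 reads of each, so a change by 1 or 2 reads moves the ratio. Alternatives that combine no filter or limma-voom with other settings, and leaving libraries out of the ratios, were added after the data were seen.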
